A study of Homo sapiens with 34 samples.

Results

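The 10 genes *CDC20*, *FZR1*, *UBE2C*, *UBE2S*, *FBXO5*, *SKP2*, *CKS1B*, *CKS2*, *PTTG1* and *CCNF* encode activators, ubiquitin-conjugating enzymes, substrate receptors, cofactors, an inhibitor and a target of the anaphase-promoting complex (APC/C) and the SCF complex. They were taken by symbol, and all 10 were found among the 13307 genes listed in each of the 6 comparisons of the series. All 10 also passed the filter on low levels that left 11800 genes for testing.

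The APC/C and SCF complexes are ubiquitin ligases that set the order of the cell cycle by marking proteins for destruction by the proteasome. CDC20 switches the APC/C on in mitosis and FZR1 (also called CDH1) keeps it active from mitotic exit through G1, while FBXO5 (also called EMI1) holds it back in S and G2 phase. UBE2C starts the ubiquitin chains built by the APC/C and UBE2S extends them. SKP2, helped by CKS1B, is the F-box protein through which the SCF complex reaches the CDK inhibitor p27, and cyclin F, the product of *CCNF*, is another F-box protein of this complex. Securin, the product of *PTTG1*, is a target of the APC/C and blocks separase until anaphase. CDK4 and CDK6, which D-type cyclins activate, act at the entry into this cycle through the RB1 protein and the E2F factors.

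RNA sequencing was done in 3 established human B-cell acute lymphoblastic leukemia (B-ALL) lines with different driver fusions, which were BV-173 with BCR-ABL, NALM-6 with ETV6-PDGFRB and RS4;11 with MLL-AF4. Cells were transduced with a lentiviral vector carrying either 1 shRNA against *CCND3* (shC3) or a scrambled shRNA (scr), and RFP+ cells were sorted on day 4. Other cells were given 1 µM of the CDK4/6 inhibitor palbociclib or the solvent DMSO for 3 days, so that each treatment had a control of its own. The 34 samples form 12 groups of 3, except that shC3 of NALM-6 and DMSO of BV-173 have 2 samples each. The labels do not say whether samples of a group came from separate cultures, and the lentiviral groups were sorted while sorting is not described for the drug groups. The question behind the comparisons was how loss of the cyclin D3 transcript differs from inhibition of the kinases that cyclin D3 activates.

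The authors' tables give 1 level per group. There is therefore no replicate spread, no depth per sample and no n to print beside a level. Every level below is the authors' value for its group. How samples were pooled and pairs scaled is not stated. The level was taken as a signal scaled within each pair of groups and not divided by gene length. Where values of the 3 lines follow each other without names, their order is NALM-6, RS4;11, BV-173. The summed level per group ran from 1.78e+07 to 2.08e+07, and the smallest level of any gene was 0.145. The B-lineage origin was checked with marker genes, of which *CD79A*, a part of the B-cell receptor, ran from 1870.45 to 21607 over the 12 groups and *PAX5*, the B-lineage transcription factor, from 7880.1 to 17673. *CD22*, *CD79B*, *EBF1*, *IGLL1*, *RAG1* and *VPREB1* were at 925 or more in every group. *DNTT*, the terminal transferase of lymphoid precursors, was low in RS4;11, with 75.2 to 215 in its 4 groups against 5208 to 17640 in the groups of the other lines. Of the myeloid markers, *CSF1R* ran from 284 to 508 in RS4;11, from 145 to 513 in BV-173 and from 0.640 to 2.22 in NALM-6. The summed level of 4 T cell markers was at most 7.70, of 3 erythroid markers at most 1.22, of 3 epithelial markers at most 38.5 and of 4 myeloid markers at most 559.6.

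*CCND3* itself was lower in each shC3 group. Its level was 19498 with scr and 4727 with shC3 in NALM-6, 16178 and 3353 in RS4;11, and 6619 and 2059.6 in BV-173. The shC3 groups thus held 24.2%, 20.7% and 31.1% of their controls, and *CCND3* ranked between 3 and 8 from the lowest ratio of all genes in its table. In limma over the 3 lines *CCND3* fell by 2.00 on the log2 scale with knockdown (SE 0.13, adjusted p = 0.00402). With palbociclib the *CCND3* level was 76.0% to 81.8% of DMSO, and this difference did not pass the test (mean log2 ratio -0.35, adjusted p = 0.112).

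Promoters of the 10 genes were compared because most of the genes moved together. RefSeq promoter sequences (GRCh38.p14), each from 250 bases before to 50 bases after a transcription start, were found for 9 of the 10 genes (all but *UBE2C*), with 12 starts in all. They were searched on both strands for 3 kinds of words known from cell-cycle promoters. These were the CHR element (TTTGAA or TTCGAA), the CCAAT box (CCAAT), and E2F-like words (TTTGGCGC, TTTCGCGC, TTTCCCGC, TTTGCCGC or TTTGGCGG). The CHR word was present in 6 of the 12 promoters, belonging to *CDC20*, *FZR1*, *FBXO5*, *CKS1B*, *CKS2* and *CCNF*. Of all 35116 promoters 16.4% held it, and of the promoters of genes tested here 12.1%. CCAAT was present in 8 of the 12 promoters, belonging to 7 genes, against 34.6% of all promoters and 34.7% of those of genes tested. No E2F-like word was found in the 12 promoters of these 9 genes, while 3.92% of all promoters and 5.91% of those of genes tested held one. The promoter of *SKP2* held none of these words.

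The 250 bases before the start are printed for 6 genes, 5′ to 3′ in the direction of the gene, with CHR and CCAAT words (or their reverse complements TTCAAA and ATTGG) in capitals. Where CCAAT meets its reverse complement the words overlap and are marked as 1 run, as in *PTTG1*. *CDC20*, *CKS1B*, *CKS2* and *CCNF* are shown as promoters that hold both words, *PTTG1* as a promoter with CCAAT alone, and *FZR1* as the gene of the 10 whose ratios were on average nearest to 1.
*CDC20* (chr1:43358731-43358980, plus strand): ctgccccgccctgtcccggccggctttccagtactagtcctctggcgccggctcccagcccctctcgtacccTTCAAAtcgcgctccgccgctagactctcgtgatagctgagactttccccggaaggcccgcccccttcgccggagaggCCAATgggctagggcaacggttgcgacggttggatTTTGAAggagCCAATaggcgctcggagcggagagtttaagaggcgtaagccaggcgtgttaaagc
*CKS1B* (chr1:154974431-154974680, plus strand): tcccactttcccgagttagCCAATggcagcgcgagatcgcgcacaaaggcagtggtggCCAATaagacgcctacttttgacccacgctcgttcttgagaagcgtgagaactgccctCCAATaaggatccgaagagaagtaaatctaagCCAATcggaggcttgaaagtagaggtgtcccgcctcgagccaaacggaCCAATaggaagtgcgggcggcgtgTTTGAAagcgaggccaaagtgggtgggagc
*CKS2* (chr9:89310945-89311194, plus strand): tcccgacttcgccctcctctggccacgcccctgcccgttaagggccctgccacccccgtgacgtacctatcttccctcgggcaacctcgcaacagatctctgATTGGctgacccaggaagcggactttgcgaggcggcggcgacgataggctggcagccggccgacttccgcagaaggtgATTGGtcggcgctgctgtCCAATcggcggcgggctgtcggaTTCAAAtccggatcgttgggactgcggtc
*CCNF* (chr16:2429197-2429446, plus strand): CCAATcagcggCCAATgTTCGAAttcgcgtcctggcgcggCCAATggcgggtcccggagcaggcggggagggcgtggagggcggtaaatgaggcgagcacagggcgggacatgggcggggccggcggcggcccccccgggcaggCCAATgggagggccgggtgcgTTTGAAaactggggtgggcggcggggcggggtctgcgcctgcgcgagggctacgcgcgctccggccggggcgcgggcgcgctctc
*PTTG1* (chr5:160421605-160421854, plus strand): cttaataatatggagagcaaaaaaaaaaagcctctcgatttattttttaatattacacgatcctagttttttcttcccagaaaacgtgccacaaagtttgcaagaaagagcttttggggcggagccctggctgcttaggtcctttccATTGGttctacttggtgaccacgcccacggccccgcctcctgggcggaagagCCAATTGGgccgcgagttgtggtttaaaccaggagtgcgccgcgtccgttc
*FZR1* (chr19:3506061-3506310, plus strand): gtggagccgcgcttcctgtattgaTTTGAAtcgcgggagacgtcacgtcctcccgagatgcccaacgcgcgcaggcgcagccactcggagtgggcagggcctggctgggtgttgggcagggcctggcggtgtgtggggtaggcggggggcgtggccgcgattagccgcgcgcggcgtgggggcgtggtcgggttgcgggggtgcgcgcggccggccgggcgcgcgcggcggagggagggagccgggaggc

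In *CDC20* the CHR word nearest the start began 65 bases before it and lay between CCAAT words at 100 and 55 bases. *CKS1B* had 5 CCAAT words and a CHR word 30 bases before the start, and *CKS2* had 3 CCAAT words and a CHR word 29 bases before it. *CCNF* had CHR words at 85 and 233 bases. In *FZR1* the only CHR word lay 226 bases before the start, and no CCAAT word was found. A word match is a description of the sequence, and no binding was measured.

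With knockdown, most of the 10 genes had lower levels in NALM-6 and RS4;11 and levels nearer the control in BV-173. A level at least 1.5-fold lower than scr was found for 8 of the 10 genes in NALM-6, where 10.4% of all genes were that much lower. In RS4;11 it was found for 9 of the 10 genes, against 11.3% of all genes. In BV-173 it was found for 1 of the 10 (*FBXO5*), against 5.39% of all genes. With palbociclib the count was 9 of 10 in each line, against 17.6%, 16.5% and 14.3% of all genes. A level at least 2-fold lower was found with knockdown for 5, 4 and 0 of the 10 genes, against 3.91%, 4.70% and 0.588% of all genes. With palbociclib 8, 8 and 6 of the 10 were that low, against 8.09%, 8.0% and 6.09%. None of the 10 genes was 1.5-fold higher in any of the 6 comparisons, but the share of all genes that much higher was not counted. The median level of the 10 genes was 50.4%, 54.8% and 83.6% of the control with knockdown and 14.8%, 33.0% and 40.8% with palbociclib. These folds compare single levels and carry no test. In bulk RNA, fewer cells in a phase of the cycle and less RNA of a gene per cell cannot be told apart.

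**Figure D1:**
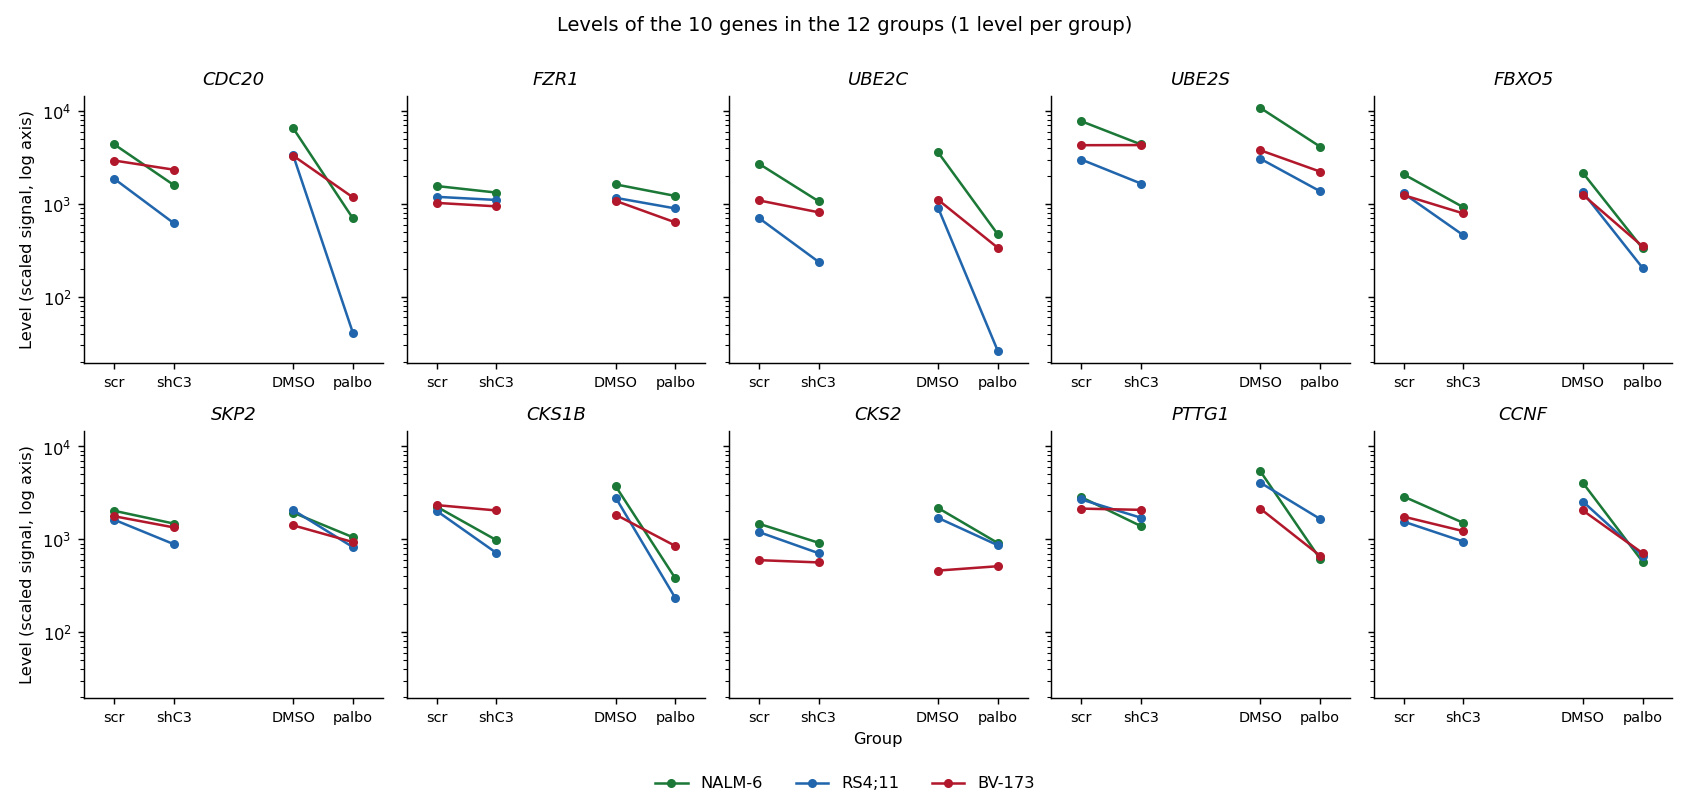
Level of each of the 10 genes (scaled signal, log axis) in the 12 groups, with 1 point per group and a line from each control to its treated group, coloured by cell line (scr, scrambled shRNA; shC3, *CCND3* shRNA; palbo, palbociclib). *CDC20* and *UBE2C* drop to 40.8 and 26.2 in RS4;11 with palbociclib, while *FZR1* stays between 632 and 1623 in all groups.

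*CDC20*, the mitotic activator of the APC/C (chr1:43358981-43363203, GRCh38.p14), had the lowest mean ratio of the 10 genes. Its scr and shC3 levels were 4385 and 1598 in NALM-6, 1869.6 and 621 in RS4;11, and 2933 and 2336 in BV-173. Its DMSO and palbociclib levels were 6524 and 698 in NALM-6, 3329.9 and 40.8 in RS4;11, and 3302 and 1176 in BV-173. Every treated level was below its own control, although the shC3 level of BV-173 lay above the scr level of RS4;11. In RS4;11 with palbociclib, *CDC20* was at 1.23% of DMSO, an 81.6-fold lower level, and ranked 14 from the lowest of 12043 genes. Over the 3 lines *CDC20* fell by 1.13 on the log2 scale with knockdown (SE 0.23, limma adjusted p = 0.0272), and with palbociclib it fell by 3.69 (SE 0.82, adjusted p = 0.0324).

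*FZR1*, the G1 activator of the same complex (chr19:3506311-3538334), had the mean ratio nearest to 1. The knockdown comparisons gave 1559 and 1325, 1192 and 1103, and 1026 and 942 for control and treated group. The palbociclib comparisons gave 1623 and 1219, 1163 and 894, and 1079 and 632. The treated levels were 85.0% to 92.5% of the control with knockdown and 58.6% to 76.9% with palbociclib, and only BV-173 with palbociclib was past 1.5-fold. *FZR1* did not pass the test with knockdown (mean log2 ratio -0.16, 95% interval -0.41 to 0.10, limma adjusted p = 0.416) or with palbociclib (-0.52, interval -0.86 to -0.18, adjusted p = 0.0526).

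*UBE2C*, the chain-starting enzyme (chr20:45812644-45816952), was close to *CDC20* in its ratios. Between scr and shC3 the level went from 2708 to 1067, from 705 to 238 and from 1091 to 812. Between DMSO and palbociclib the level went from 3597 to 471, from 911 to 26.2 and from 1108 to 337. All 6 treated levels were lower than their controls, and RS4;11 with palbociclib kept 2.88% of its DMSO level. *UBE2C* fell by 1.11 on the log2 scale with knockdown (SE 0.21, limma adjusted p = 0.0243), and with palbociclib it fell by 3.26 (SE 0.58, adjusted p = 0.0184).

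*UBE2S*, the chain-extending enzyme (chr19:55399745-55407788), had ratios nearer to 1. The scr and shC3 levels were 7769 and 4368 in NALM-6, 3004 and 1656 in RS4;11, and 4286 and 4302 in BV-173. The DMSO and palbociclib levels were 10783 and 4130.4, 3059 and 1367, and 3778 and 2226. The BV-173 level was thus 100.4% of the control with knockdown and 58.9% with palbociclib. *UBE2S* fell by 1.10 on the log2 scale with palbociclib (SE 0.15, limma adjusted p = 0.0107), while its mean log2 ratio of -0.56 with knockdown did not pass (SE 0.17, adjusted p = 0.0870). *UBE2S* and *CDC20* share stretches of up to 213 and 112 bases with pseudogenes (*UBE2SP1*, *UBE2SP2* and *CDC20P1*, GENCODE 44) that none of the 6 tables lists, and their levels are uncertain to that extent.

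*FBXO5*, the inhibitor that holds the APC/C back before mitosis (chr6:152970535-152983579), was the only member of the 10 that was at least 1.5-fold lower in all 6 comparisons. Knockdown groups stood at 919, 459 and 789, against 2084, 1295 and 1242 with scr. Palbociclib groups stood at 332, 205 and 349, against 2157, 1333 and 1254 with DMSO. The 6 control levels lay between 1242 and 2157 and the 6 treated levels between 205 and 919. These levels come from tables taken as scaled separately, and the share of all genes with such a gap was not counted. *FBXO5* fell by 1.11 on the log2 scale with knockdown (SE 0.17, limma adjusted p = 0.0158), and with palbociclib it fell by 2.42 (SE 0.21, adjusted p = 0.00691). In each treatment this was the smallest adjusted p of the 10 genes.

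*SKP2*, the F-box protein for p27 (chr5:36152111-36193530), was lower in all 6 comparisons but past 1.5-fold with knockdown only in RS4;11. Levels with scr were 2031, 1628 and 1774, and with shC3 they were 1478, 887 and 1344. Levels with DMSO were 1939, 2065 and 1415, and with palbociclib they were 1053, 824 and 935. The lowest shares of the control, 54.5% with knockdown and 39.9% with palbociclib, were in RS4;11. *SKP2* fell by 0.58 on the log2 scale with knockdown (SE 0.13, limma adjusted p = 0.0362), and with palbociclib it fell by 0.93 (SE 0.17, adjusted p = 0.0185).

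*CKS1B*, the small CDK-binding protein that SKP2 needs to bind p27 (chr1:154974681-154979251), had a lower ratio than *SKP2* in 5 of the 6 comparisons, the exception being knockdown in BV-173. The level went with knockdown from 2251 to 983 in NALM-6, from 2031 to 716 in RS4;11 and from 2338 to 2047 in BV-173. The level went with palbociclib from 3741 to 380.1, from 2817 to 233 and from 1847 to 849. The palbociclib groups of NALM-6 and RS4;11 kept 10.2% and 8.29% of DMSO, against 45.9% in BV-173. *CKS1B* fell by 0.96 on the log2 scale with knockdown (SE 0.23, limma adjusted p = 0.0420), and with palbociclib it fell by 2.67 (SE 0.46, adjusted p = 0.0165). *CKS1B* shares stretches of up to 198 bases with the pseudogenes *CKS1BP2* and *CKS1BP3*, which no table lists, but no stretch over 15 bases with *CKS2*.

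*CKS2*, its paralog and likewise a CDK-binding protein (chr9:89311195-89316703), had unlike ratios in the lines. The scr and shC3 levels were 1472 and 918 in NALM-6, 1198 and 709 in RS4;11, and 597 and 564 in BV-173. Palbociclib groups of NALM-6 and RS4;11 stood at 913 and 864, against 2176 and 1702 with DMSO, while the BV-173 level was 461 with DMSO and 513 with palbociclib. All 4 BV-173 levels lay below the 8 levels of the other lines, which come from tables taken as scaled separately. *CKS2* did not pass the test with knockdown (mean log2 ratio -0.51, 95% interval -0.87 to -0.14, limma adjusted p = 0.0880) or with palbociclib (-0.69, interval -1.36 to -0.02, adjusted p = 0.134). Without BV-173 it passed in each treatment (-0.72, adjusted p = 0.0187, and -1.12, adjusted p = 0.0127).

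*PTTG1*, which encodes securin (chr5:160421855-160428744), had its lowest ratios in NALM-6. Levels went from 2844 to 1386 in NALM-6, from 2686 to 1706 in RS4;11 and from 2142 to 2078 in BV-173 when scr and shC3 are compared. Between DMSO and palbociclib they went from 5382 to 613, from 4067 to 1656 and from 2134 to 665. In RS4;11, where *CDC20* and *UBE2C* had their lowest ratios, *PTTG1* kept 40.7% of its DMSO level, more than in NALM-6 (11.4%) or BV-173 (31.2%). *PTTG1* fell by 2.04 on the log2 scale with palbociclib (SE 0.34, limma adjusted p = 0.0154), and its mean log2 ratio of -0.58 with knockdown did not pass (SE 0.18, adjusted p = 0.0873).

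*CCNF*, which encodes cyclin F (chr16:2429447-2458854), was lower in all 6 comparisons. The knockdown groups held 1502.5, 945 and 1224, against 2886, 1551 and 1754 with scr. The palbociclib groups held 575, 664 and 711, against 4055, 2552 and 2046 with DMSO. The treated levels were 52.1%, 61.0% and 69.8% of the control with knockdown and 14.2%, 26.0% and 34.7% with palbociclib. *CCNF* fell by 0.72 on the log2 scale with knockdown (SE 0.12, limma adjusted p = 0.0175), and with palbociclib it fell by 2.10 (SE 0.25, adjusted p = 0.00820).

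**Figure D2:**
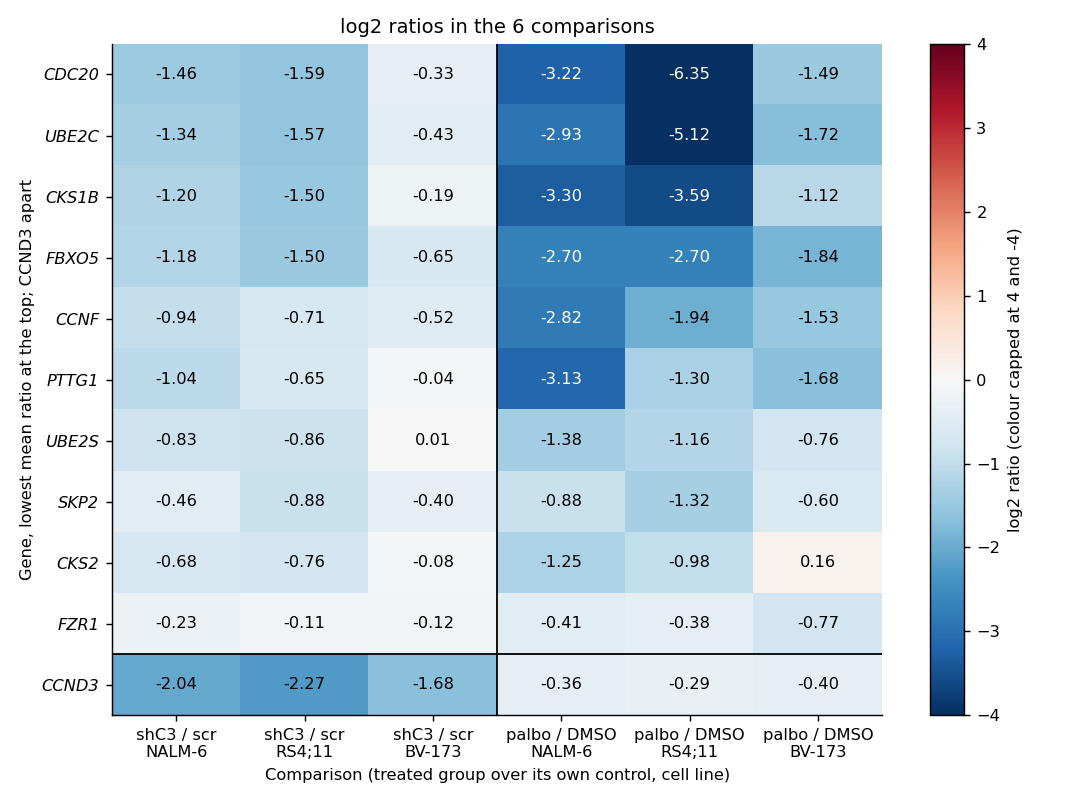
log2 ratio of the treated group to its own control for the 10 genes and, below the line, *CCND3*, in the 6 comparisons, with the value in each cell and blue for lower levels. Among the 10 genes the knockdown column of BV-173 is palest, with ratios from -0.65 to 0.01, and the palbociclib column of RS4;11 holds the lowest values, -6.35 for *CDC20* and -5.12 for *UBE2C*.

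Over the 3 lines, with limma on 1 log2 ratio per line, 6 of the 10 genes fell with knockdown at an adjusted p under 0.05, namely *FBXO5*, *CCNF*, *UBE2C*, *CDC20*, *SKP2* and *CKS1B*. Of the 11800 genes tested, 5.42% were lower and 3.06% higher by this rule. The median effect was -0.65 for the 10 genes and 0.00 for all genes. With palbociclib 8 of the 10 genes fell, which were these 6 with *UBE2S* and *PTTG1*, while 10.7% of all genes were lower and 6.47% higher. The median effect was -2.07 for the 10 genes and 0.01 for all genes. All 10 mean ratios were below 0 in each treatment. The test sets an effect against its spread over the 3 lines, moderated across genes, and not against the spread between replicates. The calls depended on the lines and on the variance trend. Without NALM-6, 3 of the 10 genes passed with knockdown (*CDC20*, *UBE2C* and *FBXO5*) and 0 with palbociclib in limma, where 0 of all 11800 genes passed although 3272 genes, 9 of the 10 among them, had an unadjusted p under 0.05. Without RS4;11 *SKP2* lost its call in each treatment (adjusted p = 0.196 and 0.0538). Without BV-173, 9 of the 10 passed in each treatment, and without a variance trend 0 of the 10 passed with knockdown (9 at an unadjusted p under 0.05) and 7 with palbociclib.

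**Figure D3:**
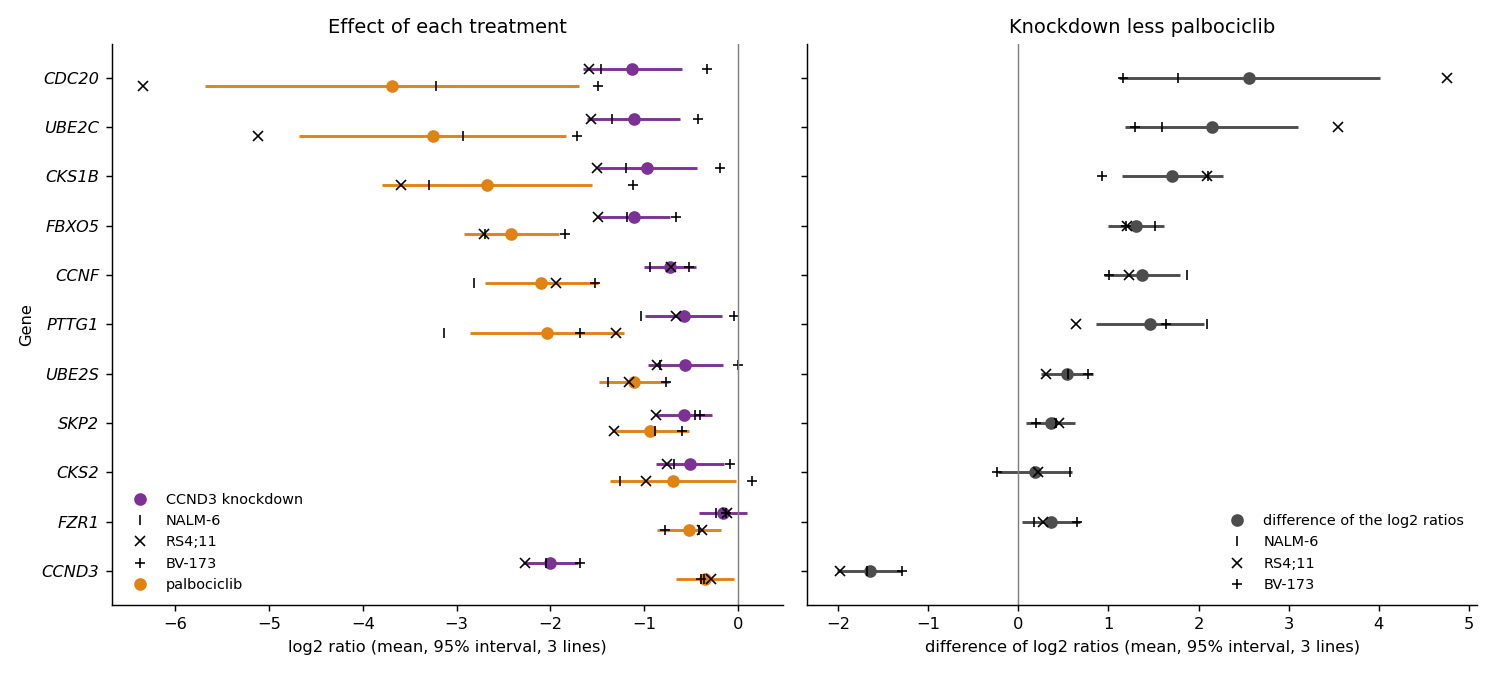
Mean log2 ratio over the 3 lines (circle) with its 95% interval from limma (bar) and the value of each line (black marks), for knockdown and palbociclib on the left and for the difference, knockdown less palbociclib, on the right. Values above 0 on the right mean a lower ratio with palbociclib. The intervals of *CDC20* and *UBE2C* with palbociclib are widest, with RS4;11 at -6.35 and -5.12, and the interval of *CKS2* on the right includes 0.

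The ratio was lower with palbociclib than with knockdown in 29 of the 30 pairs of gene and line, the exception being *CKS2* in BV-173. The difference, knockdown less palbociclib within a line, passed the test for 5 of the 10 genes, all in this direction. Of all genes, 3.97% passed in this direction and 1.42% in the other. The median difference was 1.34 for the 10 genes and 0.01 for all genes. The count of pairs was not made for all genes, and the 30 pairs share genes and lines. On the log2 scale the difference was 2.14 for *UBE2C* (SE 0.40, limma adjusted p = 0.0341), 1.71 for *CKS1B* (SE 0.24, adjusted p = 0.0152), 1.46 for *PTTG1* (SE 0.25, adjusted p = 0.0286), 1.37 for *CCNF* (SE 0.18, adjusted p = 0.0132) and 1.31 for *FBXO5* (SE 0.13, adjusted p = 0.00867). *FBXO5* had nearly the same difference in each line (1.52, 1.21 and 1.19).

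*CDC20* had the largest mean difference of the 10 genes, 2.56, but it ranged from 1.16 in BV-173 to 4.76 in RS4;11 and did not pass (limma adjusted p = 0.0602). Without RS4;11 its difference was 1.46 and passed (adjusted p = 0.00944). For *UBE2S*, *SKP2*, *FZR1* and *CKS2* the difference did not pass, with 95% intervals of 0.25 to 0.83, 0.08 to 0.63, 0.04 to 0.69 and -0.22 to 0.59. Without NALM-6 the difference passed only for *CCNF* and *FBXO5* of the 10 genes, without BV-173 it did not pass for *PTTG1* (adjusted p = 0.0886), and without a variance trend it passed for 0 of them (8 at an unadjusted p under 0.05 in limma). The treatments also differ in duration and delivery, and these cannot be told apart from the treatment itself.

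BV-173 differed from the other lines in the size of the ratios. With knockdown its ratio was the highest of the 3 lines for 9 of the 10 genes, and with palbociclib for 8 of the 10. The lowest knockdown ratio was in RS4;11 for 7 genes and in NALM-6 for 3. The lowest palbociclib ratio was in RS4;11 for 5 genes, in NALM-6 for 4 and in BV-173 for 1 (*FZR1*). *CCND3* was also less reduced in BV-173, to 31.1% of the control against 24.2% and 20.7%, and its part in the smaller falls with knockdown was not tested. Of all genes, too, the share 1.5-fold lower was smallest in BV-173 in each treatment. The standard deviation of the log2 ratios of all genes was also smallest there. It was 0.51, 0.57 and 0.36 with knockdown and 0.89, 0.96 and 0.67 with palbociclib. How many of all genes had their highest ratio in BV-173 was not counted. With no replicate values, no test between lines was made.

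Levels per kb of gene length put *UBE2S* or *PTTG1* highest in each control group. They allow genes to be compared if the authors' levels were not already divided by length. With scr the *UBE2S* and *PTTG1* levels per kb were 6437 and 3581 in NALM-6, 2489 and 3382 in RS4;11, and 3551 and 2698 in BV-173. *FZR1* was lowest in all 6 control groups, from 285 to 451 per kb. The *CDC20* level was 3.32 to 8.52 times that of *FZR1* in the controls. With knockdown this ratio was 2.56, 1.19 and 5.26. With palbociclib it was 1.21, 0.0968 and 3.94, so that *FZR1* was the more abundant of these APC/C activators in RS4;11 with palbociclib and in no other group.

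The ratio of *FBXO5* to *FZR1*, the inhibitor to the G1 activator, lay between 1.77 and 2.18 per kb in all 6 control groups. It was below 1 in all 3 palbociclib groups (0.445, 0.374 and 0.903), and in the knockdown groups it was 1.13, 0.68 and 1.37. *UBE2C* per kb was below *UBE2S* in every group, at 0.330 to 0.490 of it in the controls and at 0.160, 0.0270 and 0.213 with palbociclib. *CKS1B* exceeded *CKS2* 1.16-fold to 1.30-fold in the control groups of NALM-6 and RS4;11 and 2.97-fold and 3.04-fold in those of BV-173. With palbociclib the ratio of *CKS1B* to *CKS2* was 0.315, 0.205 and 1.25. The ratio of *CKS1B* to *SKP2* ran from 3.63 to 6.32 in the controls and was 1.18, 0.929 and 2.98 with palbociclib. These ratios compare levels within a group and carry no test.

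**Figure D4:**
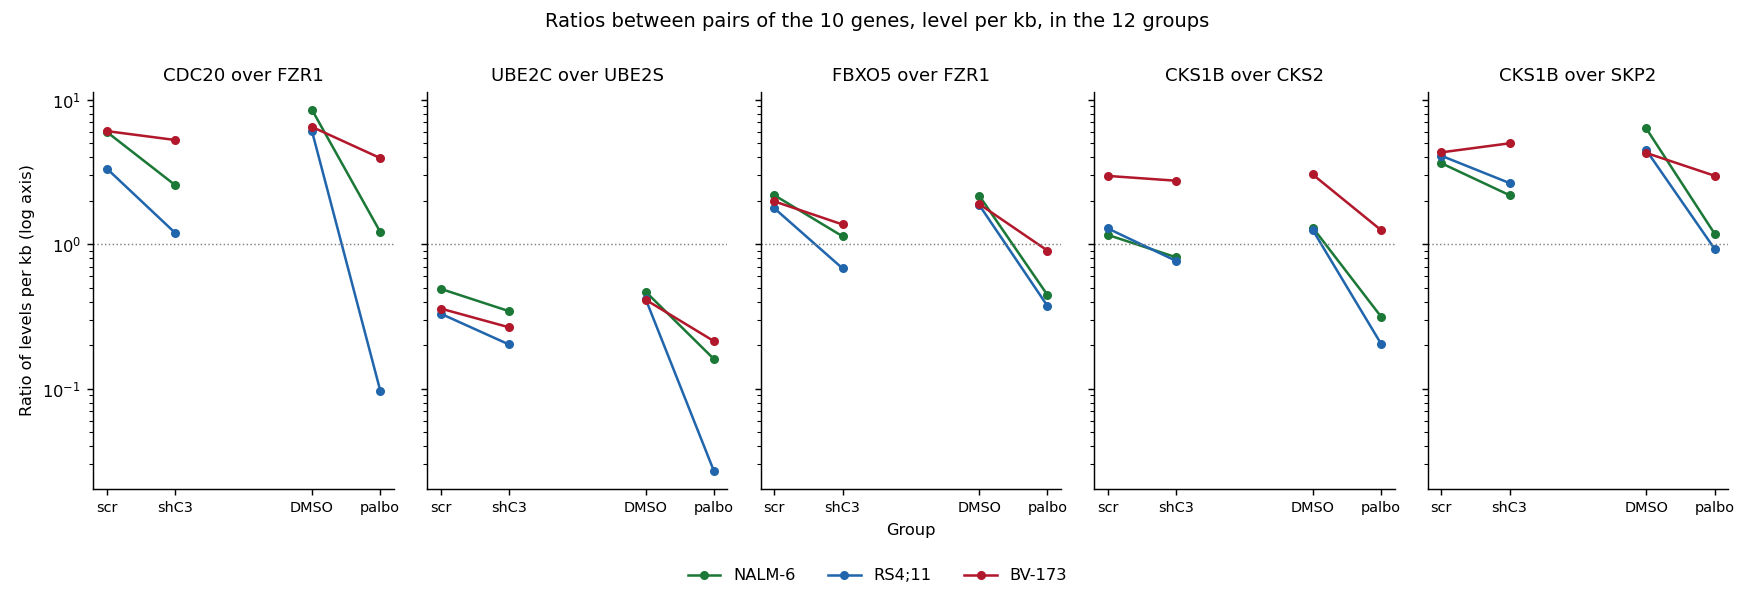
Ratio of the levels per kb of pairs of the 10 genes (log axis, dotted line at 1) in each control and treated group, coloured by cell line. *CDC20* over *FZR1* goes from 6.07 with DMSO to 0.0968 with palbociclib in RS4;11, while *FBXO5* over *FZR1* starts between 1.77 and 2.18 in every control and ends below 1 in all 3 palbociclib groups.

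The subunits of the ligases themselves mostly did not pass the test, and their counts stand beside the shares of all genes given above, 5.42% lower and 3.06% higher with knockdown and 10.7% lower and 6.47% higher with palbociclib. Of the 14 APC/C core subunits, 0 passed with knockdown in limma (2 at an unadjusted p under 0.05), with effects from -0.41 to 0.20 on the log2 scale. With palbociclib 2 fell, *CDC27* (-0.63, limma adjusted p = 0.0186) and *CDC23* (-0.61, adjusted p = 0.0268), and 1 rose, the cullin-like subunit *ANAPC2* (0.58, adjusted p = 0.0473). These shares are near those of all genes. *CDC16*, *ANAPC5* and *ANAPC16* had the mean ratios over the 6 comparisons nearest to 1 in this list, with palbociclib effects of 0.15, 0.14 and 0.01. Of the 12 genes of the SCF core and the cullin cycle, 0 passed with knockdown in limma (3 at an unadjusted p under 0.05). With palbociclib *CAND1*, which exchanges the F-box proteins on the cullin (-0.72, adjusted p = 0.0197), and *NAE1*, a subunit of the NEDD8-activating enzyme (-0.60, adjusted p = 0.0279), fell, while *CUL1*, the cullin itself, was at -0.10 (adjusted p = 0.729).

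Of 16 other F-box substrate receptors, *FBXO43* (also called EMI2), a relative of *FBXO5* that inhibits the APC/C in meiosis, was the only gene that fell in each treatment. It fell by 1.34 with knockdown (limma adjusted p = 0.0191), and with palbociclib it fell by 3.63 (adjusted p = 0.0107). In this list *FBXO31* rose with knockdown (0.47, adjusted p = 0.0466), and 2 more genes fell with palbociclib, *FBXL5* and *FBXO11*, which the naming rule did not pick. *BTRC*, the receptor for beta-catenin, and *FBXW2* had palbociclib effects of 0.17 and 0.08. Of the 7 deubiquitinase genes tested, 1 fell with knockdown and 4 with palbociclib, against 5.42% and 10.7% of all genes. *USP44* was below the filter on low levels. *USP37*, which removes ubiquitin from cyclin A, fell by 1.05 with knockdown (adjusted p = 0.0155), and with palbociclib it fell by 1.68 (adjusted p = 0.00691).

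All 24 listed genes of APC/C substrates fell in each treatment, with a median effect of -1.19 with knockdown and -3.33 with palbociclib. A difference between the treatments passed for 19 of them, all with the lower ratio under palbociclib. Of all genes, 5.42% fell with knockdown, 10.7% fell with palbociclib and 3.97% had a difference that passed in this direction. The gene lists were chosen with earlier results of these data known, so their counts are a description. The kinase genes *NEK2* and *AURKB* were at -4.26 and -3.89 with palbociclib, *CCNB1* (cyclin B1) at -2.63 and *AURKA* at -2.47. *CKAP2*, which encodes a spindle protein, had the smallest palbociclib effect of the list (-0.98) and a knockdown effect of -0.81. Of 13 genes of SKP2 and cyclin F substrates, 6 fell with knockdown and 7 with palbociclib, with a median of -0.58 and -1.13. Among them were *CDT1* (-1.14 and -3.96), which licenses replication origins, and the nuclease gene *EXO1* (-1.35 and -3.58), whereas *MYC* (0.24 and 0.25) and *RBL2* (-0.02 and -0.24) did not pass. *FOXO1* (0.33 and -0.33) passed in neither treatment, but its difference between them passed (0.66, limma adjusted p = 0.0330). Of 8 mitotic checkpoint and separase genes, 6 fell in each treatment. *ESPL1*, which encodes the separase that securin blocks, fell by 1.42 with knockdown, and with palbociclib it fell by 3.73. As for all genes tested, 0 of these palbociclib calls held in limma without NALM-6, and 0 of the knockdown or difference calls without a variance trend. The activity of the ligases and the amounts of these proteins were not measured here.

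**Figure D5:**
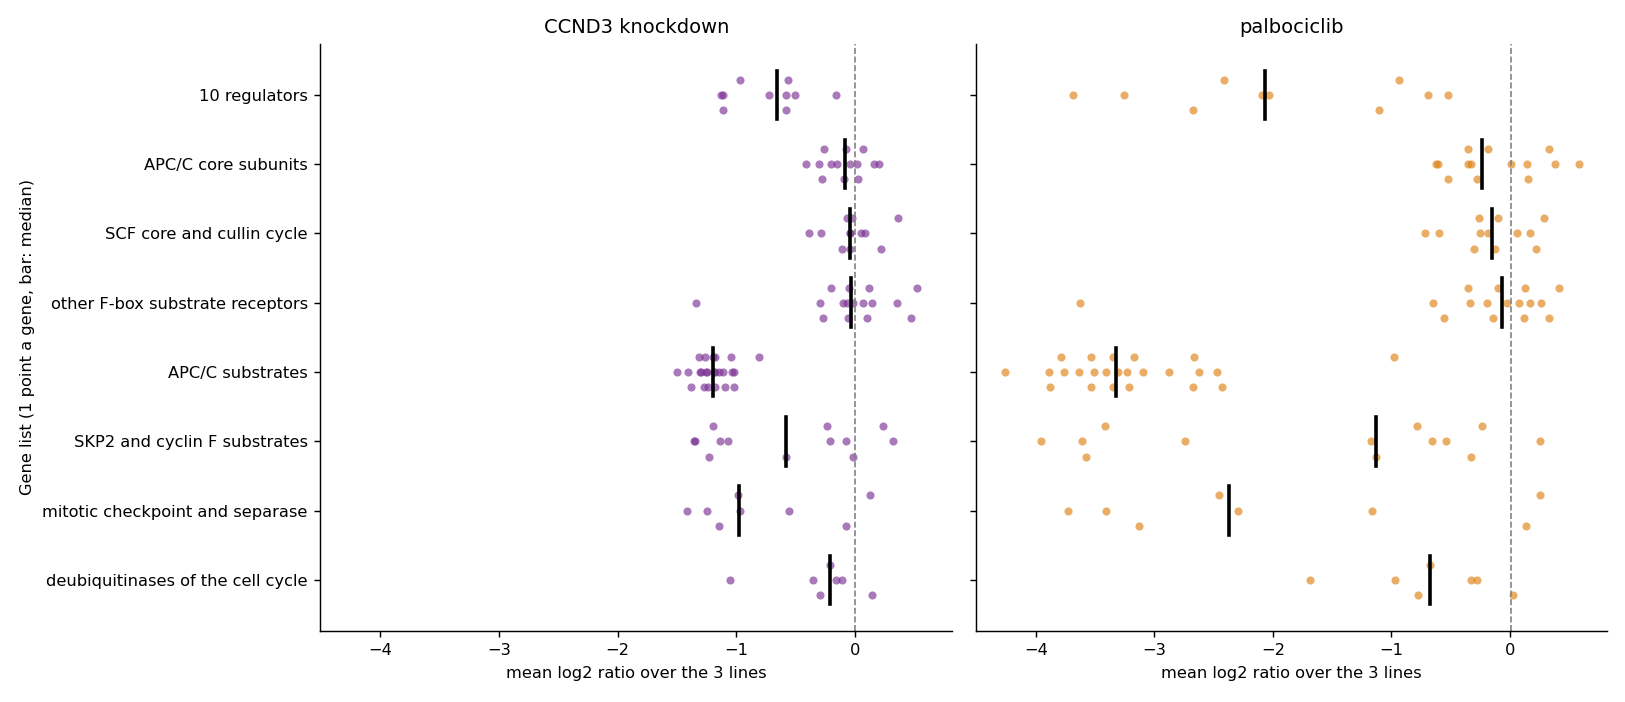
Mean log2 ratio over the 3 lines of each tested gene (1 point a gene, black bar for the median, dashed line for the median of all genes; the height of a point within its list has no meaning) with knockdown on the left and palbociclib on the right. The 10 regulators (medians -0.65 and -2.07) lie between the APC/C core subunits (medians -0.08 and -0.23) and the APC/C substrates (-1.19 and -3.33).

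Genes with the most similar ratios were sought for each of the 10 genes among 10074 genes with a mean level of at least 100, by the root mean square distance of the 6 log2 ratios. For *CDC20* these were *BIRC5*, *PLK1* and *CEP55* (distances 0.17 to 0.22), and for *UBE2C* they were *DEPDC1B*, *CDCA8* and *CDCA5* (0.13 to 0.15). For *FBXO5* they were *NSD2*, *USP1* and *MCM7* (0.09 to 0.17), for *CKS1B* *TACC3*, *MTFR2* and *TPX2* (0.11 to 0.24), and for *CCNF* *DEK*, *RHEBL1* and *NCAPD2* (0.19 to 0.28). *PTTG1* had no match as close, with *DDB2* nearest at 0.32, *CCNF* next at 0.36 and *CDC25B* at 0.39. The genes nearest *SKP2* were *NUP85*, *NUP160* and *NUP205* (0.06 to 0.11). *UBE2S* was nearest to *SLBP*, *DHRS13* and *EMC9* (0.08 to 0.13), *CKS2* to *TUBA1C*, *PRELID2* and *SRSF7* (0.09 to 0.15), and *FZR1* to *SIRT1*, *ZFP69B* and *NUP88* (0.06 to 0.07). The distances rest on 6 ratios that share cell lines and are given as a description.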

How the data were processed

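RNA of the 34 samples was enriched with oligo-dT and sequenced by BGI. Per the labels, SOAPnuke served as the read filter, Bowtie2 as the aligner (hg38), RSEM for gene levels and DESeq2 for the comparison of groups, with versions not given in the sources used here. The authors' deposited tables hold 1 signal per group and comparison, together with their log2 fold change, p-value and adjusted p, which were not used. How replicates were pooled into the group signal and how pairs were scaled is not stated, and pairs were taken as scaled separately. Treatment ratios were therefore formed only within a table. Ratios across tables were formed only for the scr and DMSO controls. Depth per sample and replicate error are unknown.

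Samples were grouped by line and treatment as labelled. For each line, log2 ratios of treated over control were computed without a pseudocount. Genes listed in all 6 tables with a mean level of at least 10 (11800 genes) were tested over the 3 lines with limma 3.58.1 (R 4.3.3; intercept, empirical Bayes with trend, two-sided, Benjamini-Hochberg adjustment, threshold 0.05). Single comparisons carry no test and use a fold of 1.5, with all genes of mean level of at least 10 in the pair as background. The p-values set the mean effect against an error from the spread between lines. Empirical Bayes moderated this error across genes, so SEs and intervals are not those of a gene's own 3 values. The treatments were compared through 1 difference of log2 ratios per line, with the line as the pair. Steps were tested on simulated data and ran in Python 3.11.15 (numpy 2.4.6, pandas 2.3.3, matplotlib 3.10.9).

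The genes, the pathway lists and the tests were chosen with earlier results of these data known. Named genes are the 10 genes, *CCND3*, up to 3 genes per list with the largest and 3 with the smallest absolute mean log2 ratio, and the 3 genes nearest to each of the 10. Symbols and NCBI identifiers are those of the tables, positions and promoters are RefSeq's (GRCh38.p14). Alternatives were other pseudocounts and filters, the median of all genes taken out, no variance trend, a fold of 2 and leaving out each line. A planned search for degradation motifs in the proteins was not run. The result of 1 marker gene, and of the B-lineage list that holds it, is not reported here.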

Additional observations from a re-analysis of the deposited data

Results flagged for a closer look

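*CKS2* with palbociclib differed in direction between lines. Its log2 ratio was 0.16 (0.1554) in BV-173, where its level was 461 with DMSO and 513 with palbociclib, against -1.25 in NALM-6 and -0.98 in RS4;11. The difference between lines was not tested, since each group has 1 level and BV-173 had 2 DMSO samples behind that level.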

How the results depend on the processing

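Over the 3 effects, 297 values of single genes under the alternatives kept direction and side of the threshold in 259 cases, lost the call in 32, gained it in 5 and changed sign in 1, the *CKS2* difference (from -0.0075 without NALM-6 to 0.40 without BV-173). Without a variance trend, limma called 0 genes with knockdown (0 of the 10 genes; 2848 genes at an unadjusted p under 0.05, 9 of the 10 among them), 1296 with palbociclib (7 of the 10, *CDC20* being lost) and 0 for the difference (0 of the 10; 2702 genes unadjusted, 8 of the 10 among them), against 1000, 2020 and 636 with the trend. Leaving out each line in turn gave 538 to 1364 called genes and 3 to 9 of the 10 with knockdown, 0 to 1557 and 0 to 9 with palbociclib, and 123 to 479 and 2 to 6 for the difference. A pseudocount of 10 lost *CKS1B* with knockdown (adjusted p = 0.0531). At a fold of 2 the counts with knockdown were 0 of the 10 in BV-173, 4 in RS4;11 and 5 in NALM-6, and with palbociclib 6, 8 and 8. The causes were not tested. No paired analysis was possible because the tables carry 1 level per group and no replicate numbers by which samples could be paired, while the treatments were paired by line. The search for degradation motifs was not run. No test was made within a line, since the group levels used carry no replicate error and the authors' p-values were left unused. Levels of different tables were taken as scaled separately.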

Other observations

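The controls of the 2 experiments were set side by side, although they come from tables taken as scaled separately and differ in transduction, sorting and day. In NALM-6, 9 of the 10 genes had a lower level with scr than with DMSO, with a median log2 ratio of -0.48 (from -0.92 to 0.07), and 7.08% of all genes lay below this median. In RS4;11 it was also 9 of the 10, with a median of -0.42 (from -0.83 to 0.04) and 7.66% of all genes below it. In BV-173 it was 5 of the 10, with a median of 0.00 (from -0.22 to 0.37) and 50.6% of all genes below it. The exceptions were *SKP2* in NALM-6 (2031 with scr and 1939 with DMSO) and *FZR1* in RS4;11 (1192 and 1163). The part of these differences in the knockdown effects, and in the difference between the treatments, was not tested.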
